A study of Mus musculus with 12 samples.

Results

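The CXC chemokine genes, Cxcl9, Cxcl10, Cxcl11, Cxcl16, Cxcl1 and Cxcl2, were followed in splenic dendritic cells (DCs) of mice with and without a functional NIK kinase, before and after activation in the animal. The members were chosen by symbol, taking each probe set annotated to 1 of these symbols and to no other gene. This gave 11 of 45101 probe sets, with 3 for Cxcl1, 2 each for Cxcl9, Cxcl11 and Cxcl16, and 1 each for Cxcl10 and Cxcl2. All 11 passed the filter on low values, and the 6 genes stood among 15019 genes tested. Where a gene had several probe sets, the one with the highest mean log2 value over all arrays represented it.

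The arrays formed 4 groups of 3, namely treated aly, untreated aly, treated WT and untreated WT. Aly (alymphoplasia) mice carry a mutation of Map3k14, the gene of NIK, and the mice called wild type (WT) here were heterozygous littermates, so that the WT groups carry the aly allele in 1 copy. Treated mice of either genotype had received 25 micrograms of LPS, a ligand of Toll-like receptor 4, together with 100 micrograms of the agonistic anti-CD40 antibody FGK4.5 into the peritoneum, and their DCs were taken 6 hours later. Untreated mice received neither agent. LPS and the antibody were given together in every treated mouse, so their contributions cannot be told apart. DCs of 3 mice were pooled for each array after CD11c bead enrichment and flow sorting, so the spread behind the p-values is that between pools. The mutation was present in every cell of the aly mice, which lack lymph nodes. Strain and age of the mice are not given in the labels.

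CXC chemokines are small secreted proteins that guide leukocytes through G protein-coupled receptors. Cxcl9, Cxcl10 and Cxcl11 are ligands of the receptor Cxcr3, which directs activated T cells and natural killer cells. All of them are classical targets of interferon gamma, and Cxcl10 also answers type I interferon and NF-kB. Cxcl16 is made as a membrane-bound ligand of Cxcr6 and can be shed by proteases, while Cxcl1 and Cxcl2 attract neutrophils through Cxcr2 and are induced by NF-kB after Toll-like receptor signals. NIK drives the non-canonical NF-kB pathway downstream of CD40 and the lymphotoxin beta receptor.

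Promoter sequences are shown so that the interferon and NF-kB motifs known for this family can be set beside the changes of the members. The RefSeq promoter table (build GRCm38.p6) matched 4 of the 6 members, and the 250 bases before each start are printed on the strand of the gene. Cxcl11 and Cxcl16 are not in the table. The stretches lie at chr5:92328080-92328329 on the minus strand for Cxcl9, chr5:92348890-92349139 on the minus strand for Cxcl10, chr5:90890995-90891244 on the plus strand for Cxcl1 and chr5:90903649-90903898 on the plus strand for Cxcl2. Capitals mark matches to an interferon response element-like motif (GAAANNGAAA) or a kappaB-like motif (GGGNNNTNCC), searched on both strands. Overlapping matches are merged in capitals.
Cxcl9: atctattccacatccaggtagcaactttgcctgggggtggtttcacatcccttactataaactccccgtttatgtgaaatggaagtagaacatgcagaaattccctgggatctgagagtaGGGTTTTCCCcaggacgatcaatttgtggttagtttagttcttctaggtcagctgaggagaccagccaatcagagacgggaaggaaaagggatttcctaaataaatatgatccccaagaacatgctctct
Cxcl10: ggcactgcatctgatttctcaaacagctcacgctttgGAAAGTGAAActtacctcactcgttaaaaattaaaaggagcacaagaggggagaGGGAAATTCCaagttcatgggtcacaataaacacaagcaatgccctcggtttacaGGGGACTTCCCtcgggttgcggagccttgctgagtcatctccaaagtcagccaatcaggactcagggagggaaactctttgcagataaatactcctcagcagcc
Cxcl1: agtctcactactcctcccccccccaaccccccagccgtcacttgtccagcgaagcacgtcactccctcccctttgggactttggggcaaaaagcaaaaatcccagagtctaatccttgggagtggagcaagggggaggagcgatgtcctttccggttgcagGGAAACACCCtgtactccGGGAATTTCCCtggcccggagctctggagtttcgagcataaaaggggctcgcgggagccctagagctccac
Cxcl2: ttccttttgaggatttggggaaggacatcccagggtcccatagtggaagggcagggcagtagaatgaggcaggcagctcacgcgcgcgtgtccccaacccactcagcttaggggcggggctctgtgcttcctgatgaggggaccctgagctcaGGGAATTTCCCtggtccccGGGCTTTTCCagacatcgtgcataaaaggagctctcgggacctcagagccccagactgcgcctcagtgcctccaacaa

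Cxcl10 was the 1 of these 4 with a match to the interferon response element-like motif (GAAAGTGAAA, 213 to 204 bases before the start), which 2.98% of 32851 promoters of this length held. Each of the 4 held a kappaB-like match, against 14.9% of all promoters. A motif like the interferon gamma-activated site (TTCNNNGAA) was searched as well. It had 0 matches in each of the 4, while 7.02% of all promoters held one. Cxcl9 had 1 kappaB-like match, 130 to 121 bases before the start. Cxcl10 had 4 kappaB-like matches at 3 places when both strands are counted, those at 104 and 103 bases before the start overlapping. Cxcl1 and Cxcl2, which are neighbours on chromosome 5, each had 3 kappaB-like matches. They shared the 14-base stretch GGGAATTTCCCTGG, which began 71 bases before the start in Cxcl1 and 97 bases in Cxcl2. A match describes letters and not a bound factor. In the gene table Cxcl9, Cxcl10 and Cxcl11 also lie close together, in the order Cxcl9, Art3, Cxcl10 and Cxcl11, and Cxcl11 is listed there as a transcribed pseudogene in the reference strain. Cxcl16 lies on chromosome 11, as does Map3k14, with 668 protein-coding genes between them.

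Array quality differed by genotype and by replicate. Treated aly replicate 1 stood apart, with a 3' over 5' ratio of 55.8 for Actb against at most 5.92 on the other aly arrays and 1.39 to 1.94 on WT arrays, and rank correlations of 0.576 to 0.665 with the rest. Its hybridisation controls averaged 28529, against 2458 to 5768 on the other arrays, and its median was 53.4, against 21.5 to 39.1. The part of these array differences in its high values below was not tested. Averaged over Actb and Gapdh, the log2 of the 3' over 5' ratio had a mean of 3.07 on aly arrays (2.17 to 5.66) and 1.57 on WT arrays (1.37 to 1.83). In all 4 groups replicate 1 had low poly-A spike-ins (4.39 to 20.4), whereas those of replicates 2 and 3 were 48.0 to 442, so values within these 2 sets are given below as within-batch values, although the labels name no batch. Of 10 DC markers 9 were on the array, and 8 or 9 of them exceeded the 40th percentile on every array of each group. With treatment in WT 2 of 9 DC markers fell, Xcr1 (-3.98, adjusted p = 0.00283) and Cd209a (-3.04, adjusted p = 0.00173), and 2 of 6 monocyte markers, Ccr2 and Lyz2 (-2.32 and -2.43, adjusted p = 0.0142 and 0.0181). The summed DC marker level was 23091 to 31393 in treated WT and 34658 to 38298 in untreated WT DCs, and that of the monocyte markers 720 to 5376 in treated WT and 5654 to 11727 in untreated WT DCs. With treatment in WT 4.95% of all genes rose and 4.75% fell. Of 13 red pulp macrophage, 4 marginal zone macrophage and 6 plasmacytoid DC markers 1 rose and 1 fell in each list, of 6 B cell markers 1 fell and of 8 stromal and endothelial markers 1 rose. The part of these cells in the WT changes below was not tested. Red pulp macrophage markers were higher in aly, with 6 of 13 called in treated and 8 of 13 in untreated DCs, where 2.74% and 0.499% of all genes were called higher. Their summed level was 31828 to 61001 in treated aly, 45620 to 73882 in untreated aly, 2606 to 16434 in treated WT and 2575 to 18279 in untreated WT DCs. Without treated aly replicate 1 the counts were 5 and 12 of 13, and 620 and 288 of 15019 genes were called higher. Marginal zone macrophage markers summed to 5272 to 31664 in treated aly, 1748 to 3496 in untreated aly, 583 to 6069 in treated WT and 122 to 681 in untreated WT DCs. By genotype 0 of 4 were called in limma with all arrays, and 3 of 4 were higher in untreated aly DCs without treated aly replicate 1. Among them Marco, a scavenger receptor, differed by 3.09 in treated and 4.17 in untreated DCs (adjusted p = 0.0771 and 0.0758). Of 6 monocyte markers Csf1r was higher in treated and Fcgr1 in untreated aly DCs, and of 4 erythroid markers Slc4a1 in both and Epor in treated DCs. Replicate numbers paired the untreated arrays of the genotypes, and with the number as a block 2 of 4 marginal zone macrophage markers, Marco (adjusted p = 0.0116) and Nr1h3 (0.0487), and 2 of 4 erythroid markers were called higher in untreated aly DCs. The part of RNA quality and of these cells in the genotype differences below was not tested. In such bulk samples fewer cells of a type and less RNA per cell cannot be told apart.

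The treatment raised 5 of the 6 chemokine genes in WT DCs, all but Cxcl16, and 1 of 6, Cxcl10, in aly DCs (limma, adjusted p under 0.05). Over all genes 4.95% were called higher and 4.75% lower with treatment in WT, and 0.453% higher in aly. After treatment the 3 Cxcr3 ligands were lower in aly than in WT DCs, the other 3 genes were not called, and 2.64% of all genes were called lower. These are calls of the representative probe sets. Among the further ones a dimmer Cxcl1 probe set was called lower (-2.28, adjusted p = 0.00917 over all probe sets). Those of Cxcl9, Cxcl11 and Cxcl16 and the remaining one of Cxcl1 were not called. Before treatment 0 of 6 differed by genotype (0.499% of all genes were called higher and 0.0533% lower). At an unadjusted p under 0.05 in limma 1 of 6, Cxcl2, passed there (0.0493, adjusted p = 0.476), as did 1570 of 15019 genes. With the replicate number as a block 0 of 6 were called as well, while the count over all genes was 133, against 83 without it. The aly response was smaller than the WT response for 1 member, Cxcl11, where 0.153% of all genes were called. The median log2 change of the 6 genes was 1.35 for treatment in aly, 3.27 for treatment in WT, -1.59 for genotype in treated, 0.21 for genotype in untreated DCs and -1.93 for the difference in response. The same medians over all genes were -0.08, -0.12, 0.19, 0.10 and 0.04.

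The 5 WT calls (Cxcl9, Cxcl10, Cxcl11, Cxcl1 and Cxcl2) also stood on replicates 2 and 3 alone, where the log2 changes were 2.64, 5.96, 5.39, 2.66 and 2.77 (adjusted p up to 0.0306). Replicate 1 alone gave 2.07, 5.30, 5.10, 3.59 and 5.14. The calls that involve aly arrays depended on the settings, with the exception of Cxcl11 between the treated genotypes on its representative probe set. Its other probe set was not called there (-0.54, adjusted p = 0.557 over all probe sets). With an offset of 1 in place of 16 those of Cxcl10 in aly (adjusted p = 0.123), of Cxcl9 and Cxcl10 between the treated genotypes (0.0799 and 0.0546) and of the Cxcl11 response difference (0.396) were lost. Fitting only the groups compared removed Cxcl10 in aly (0.168) and Cxcl9 and Cxcl10 between the treated genotypes (0.0893 and 0.0995). Centring each array on its median kept the 3 ligands lower in treated aly DCs, but it moved the balance of all genes in that comparison to 84 called higher and 423 lower, against 411 and 396 with the values as deposited. For treatment in WT it gave 609 higher and 284 lower, against 744 and 714.

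**Figure D1:**
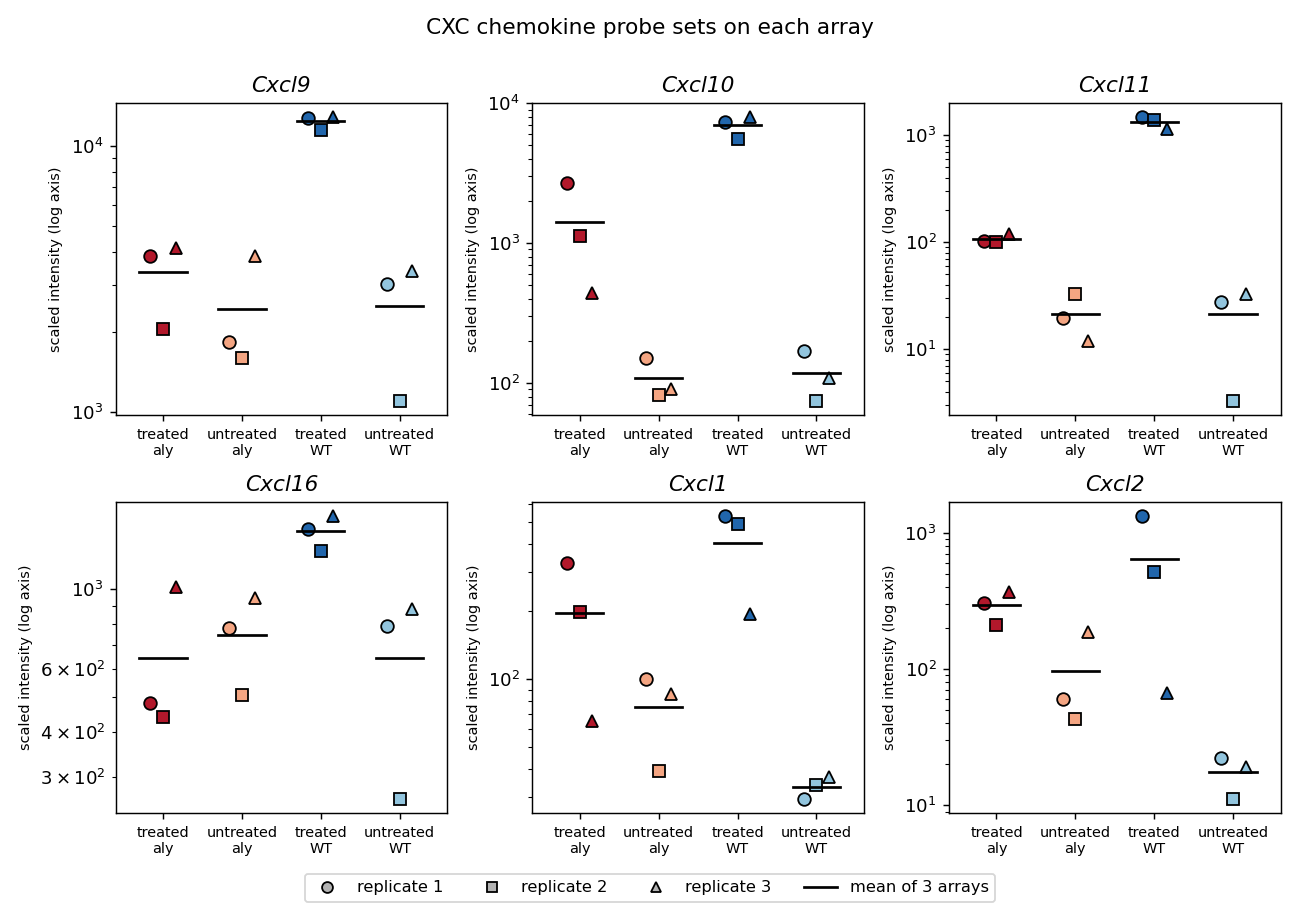
Scaled intensity (log axis) of the probe set that represents each of the 6 genes on all 12 arrays, by group, with circles, squares and triangles for replicates 1, 2 and 3 and a bar for the mean of 3 arrays. The 3 treated WT arrays stand above all other arrays for Cxcl9, Cxcl10, Cxcl11 and Cxcl16, while Cxcl1 and Cxcl2 overlap between the treated genotypes. The share of all genes with arrays set apart in this way is not given.

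Cxcl10, the interferon-inducible ligand of Cxcr3, rose in both genotypes. Its intensity was 2679, 1115 and 437 in treated aly DCs, 152, 82.3 and 90.4 in untreated aly DCs, 7331, 5532 and 7926 in treated WT DCs and 170, 74.6 and 109 in untreated WT DCs (replicates 1 to 3, in that order here and below). Every treated array lay above every untreated array, each treated aly array lay below each treated WT array, and the untreated genotypes overlapped. Here and below, the share of all genes whose arrays lie apart in this way is not given. The log2 change with treatment was 3.21 ± 0.52 in aly (9.24-fold, adjusted p = 0.0139) and 5.74 ± 0.52 in WT (53.5-fold, adjusted p = 4.8e-06; ± is the fitted standard error with 3 arrays a group). All changes are of log2(intensity + 16), an offset that understates the folds of low probe sets. The aly call was lost without untreated aly replicate 2 or 3 (adjusted p = 0.0671 and 0.0867), while the WT call was kept in all 12 omissions of 1 array. Without treated aly replicate 1 the aly change was 2.57 (adjusted p = 0.0139). It was 2.81 on replicates 2 and 3 alone (adjusted p = 0.0233) and 4.01 on replicate 1 alone.

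In treated DCs Cxcl10 was 6.16-fold lower in aly (-2.62 ± 0.52, adjusted p = 0.0117), and the call was lost without treated WT replicate 3 (adjusted p = 0.0867). The 3 treated aly arrays spread from 437 to 2679, with replicate 1 the highest. Without that array the difference was -3.26 (adjusted p = 0.000607). It was -3.21 on replicates 2 and 3 alone (adjusted p = 0.00163) and -1.45 on replicate 1 alone. The difference in response, -2.53 ± 0.74 (95% interval -4.10 to -0.97), was not called with all arrays (adjusted p = 0.301), but it was called without treated aly replicate 1 (-3.17, adjusted p = 0.0213). In untreated DCs the genotypes differed by -0.09 (95% interval -1.20 to 1.02, adjusted p = 0.971).

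Cxcl11, the ligand with the highest affinity for Cxcr3, differed most between the treated genotypes among the 6 genes in this fit. The gene is listed as a transcribed pseudogene in the reference strain and the strain of these mice is not given, so its values describe transcripts only. Its representative probe set read 102, 102 and 119 in treated aly DCs, 19.5, 32.6 and 12 in untreated aly DCs, 1473, 1396 and 1155 in treated WT DCs and 27.4, 3.30 and 33.0 in untreated WT DCs. The treated aly arrays lay close together and formed a level of their own between the untreated arrays of both genotypes and the treated WT arrays, and untreated arrays of the genotypes overlapped. In WT the treatment raised Cxcl11 39.1-fold (5.29 ± 0.39, adjusted p = 7.65e-07). In aly the change was 1.76 ± 0.39 (95% interval 0.93 to 2.59) and missed the threshold (adjusted p = 0.064), with all treated arrays above all untreated ones. Untreated levels lay near the offset of 16, on which the size of both changes depends.

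In treated DCs Cxcl11 was about 11-fold lower in aly (-3.45 ± 0.39, adjusted p = 0.000459), a call kept in all 12 omissions. Within batches the difference was -3.35 on replicates 2 and 3 (adjusted p = 0.00144) and -3.66 on replicate 1. The response was also smaller in aly, by -3.53 ± 0.55 log2 units (95% interval -4.71 to -2.36, adjusted p = 0.0173). That call held in 6 of the 12 omissions (adjusted p 0.00707 to 0.0746 over all 12). It was lost without any 1 of the treated WT replicates, without untreated aly replicate 1 or 2 or untreated WT replicate 2, and on replicates 2 and 3 alone (-3.61, adjusted p = 0.064). The other Cxcl11 probe set did not show a change of this size. It read 130, 23.8 and 9.90 in treated aly DCs, 28.3, 23.4 and 24.9 in untreated aly DCs, 56.3, 87.1 and 46.2 in treated WT DCs and 28.1, 20.1 and 17.4 in untreated WT DCs. Treated aly replicate 1 was its highest array, and tested on its own its genotype difference in treated DCs was -0.54 ± 0.50 (adjusted p = 0.557), or -1.27 without that array (adjusted p = 0.0488).

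Cxcl9, the ligand most dependent on interferon gamma, was already high in untreated DCs of both genotypes. It read 3866, 2044 and 4145 in treated aly DCs, 1827, 1593 and 3866 in untreated aly DCs, 12790, 11486 and 12823 in treated WT DCs and 3034, 1100 and 3397 in untreated WT DCs. The treated WT arrays stood apart from all 9 others, and the remaining groups overlapped. The treatment raised it 5.46-fold in WT (2.45 ± 0.47, adjusted p = 0.00363), kept in all 12 omissions. In aly the change was 0.51 ± 0.47 (95% interval -0.49 to 1.51, adjusted p = 0.649).

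In treated DCs Cxcl9 was 3.85-fold lower in aly (-1.94 ± 0.47, adjusted p = 0.0268). This call was lost in 4 of the 12 omissions, without treated aly replicate 2 or any treated WT replicate (adjusted p up to 0.133), and on replicates 2 and 3 alone (-2.05, adjusted p = 0.0513), while replicate 1 alone gave -1.72. The difference in response was -1.94 (95% interval -3.36 to -0.52, adjusted p = 0.423), and the untreated genotypes differed by -0.00 (95% interval -1.01 to 1.00). On the second Cxcl9 probe set treated aly replicate 1 read 5809, above the treated WT arrays (1173 to 3300), and the other treated aly arrays read 690 and 624. Its genotype difference in treated DCs was -0.47 (adjusted p = 0.724), or -1.51 without that array (adjusted p = 0.0766), and it rose with treatment in WT (2.70, adjusted p = 0.0214).

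**Figure D2:**
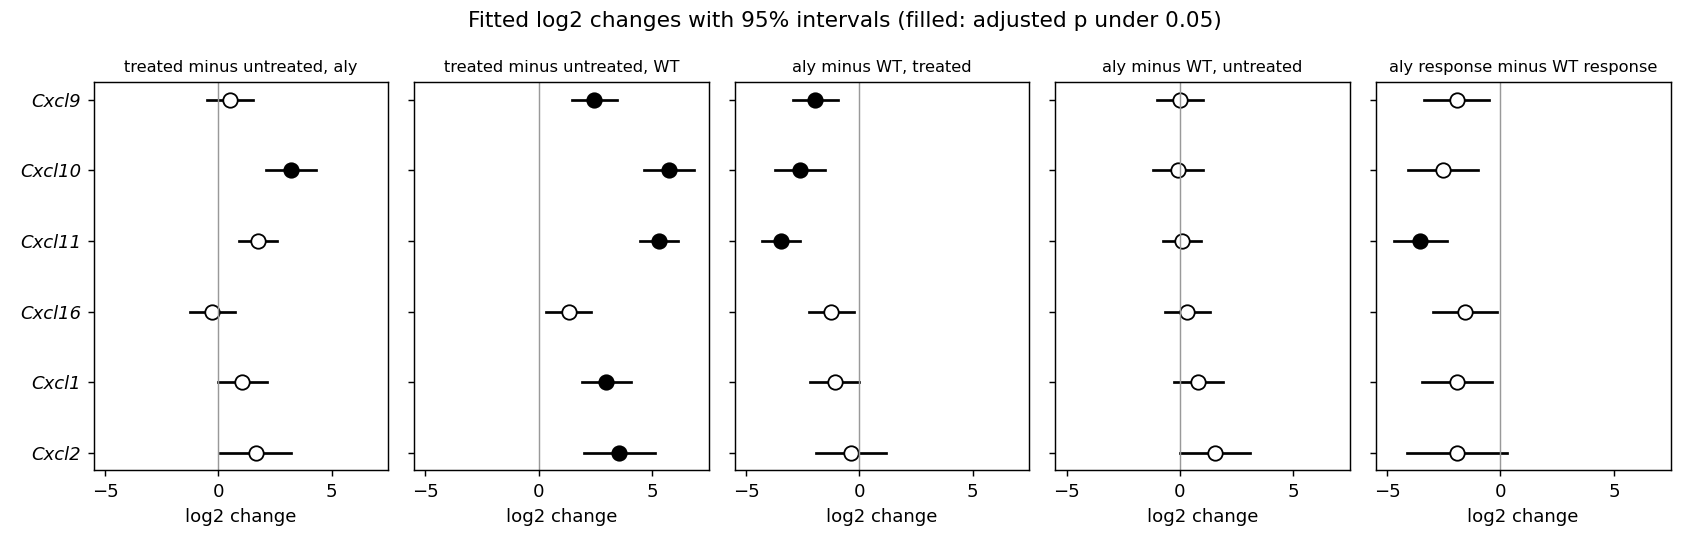
Fitted log2 changes with 95% intervals (n = 3 arrays per group) of the 6 genes in the 5 comparisons, from left to right treated minus untreated in aly and in WT, aly minus WT in treated and in untreated DCs, and the aly response minus the WT response. Filled circles mark an adjusted p under 0.05, which 5 genes reached for treatment in WT and 1 for treatment in aly.

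Cxcl16, the ligand of Cxcr6, was the 1 member without a called change in any comparison. It read 482, 441 and 1013 in treated aly DCs, 782, 507 and 946 in untreated aly DCs, 1471, 1280 and 1605 in treated WT DCs and 792, 260 and 884 in untreated WT DCs. Again the treated WT arrays lay above all others, and the other groups overlapped. The change with treatment was -0.26 ± 0.47 in aly (95% interval -1.25 to 0.73, adjusted p = 0.836) and 1.32 ± 0.47 in WT (0.33 to 2.31, adjusted p = 0.0902). The WT change was called without treated aly replicate 1 (adjusted p = 0.0433). The genotype difference in treated DCs was -1.24 ± 0.47 (95% interval -2.24 to -0.25, adjusted p = 0.129) and was called without treated aly replicate 3 (-1.61, adjusted p = 0.0484). On the second Cxcl16 probe set that difference was -0.30 (adjusted p = 0.714).

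Cxcl1, a neutrophil attractant, rose with treatment in WT. Its representative probe set read 329, 199 and 65.2 in treated aly DCs, 100, 39.3 and 86.0 in untreated aly DCs, 532, 487 and 194 in treated WT DCs and 29.4, 34.0 and 36.7 in untreated WT DCs. The treated WT arrays lay above the untreated WT arrays, whereas the aly groups overlapped, as did the treated genotypes. The WT change was 2.97 ± 0.51 (7.85-fold, adjusted p = 0.00156) and the aly change 1.07 ± 0.51 (95% interval -0.02 to 2.15, adjusted p = 0.389). The untreated aly arrays all lay above the untreated WT arrays, by 0.82 log2 units (95% interval -0.27 to 1.91, adjusted p = 0.618). The genotype difference in treated DCs was -1.09 ± 0.51 (adjusted p = 0.218), or -1.55 without treated aly replicate 1 (adjusted p = 0.0644).

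The 3 Cxcl1 probe sets gave different values for this comparison. The dimmest over the arrays read 10.1, 48.2 and 26.6 in treated aly DCs, 26.4, 23.4 and 30.8 in untreated aly DCs, 213, 284 and 102 in treated WT DCs and 11.5, 23.9 and 12.3 in untreated WT DCs. There the treated genotypes did not overlap, and its difference was -2.28 ± 0.42 (adjusted p = 0.00917 over all probe sets), or -1.94 without treated aly replicate 1 (adjusted p = 0.00968). The third probe set read 369, 127 and 70.5 in treated aly DCs and 241, 221 and 137 in treated WT DCs, an overlap, with a difference of -0.32 (adjusted p = 0.725). All 3 rose with treatment in WT (2.97, 2.68 and 1.67, adjusted p = 0.00147, 0.000736 and 0.0381 over all probe sets).

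**Figure D3:**
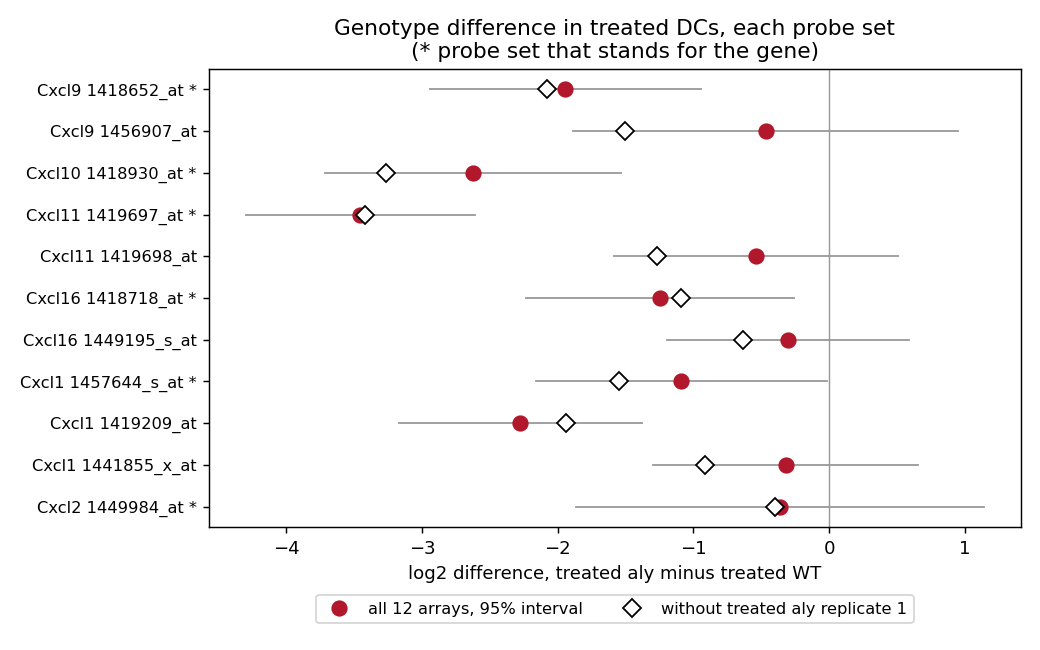
Log2 difference between treated aly and treated WT DCs for each of the 11 probe sets, with its 95% interval over all 12 arrays (red circle) and its value without treated aly replicate 1 (open diamond), the asterisk marking the probe set that represents the gene. All 11 values are negative, and the probe sets of Cxcl9, Cxcl11, Cxcl16 and Cxcl1 differ in size within the gene.

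Cxcl2, the other neutrophil attractant, rose 11.8-fold in WT (3.56 ± 0.73, adjusted p = 0.00566). It read 304, 211 and 368 in treated aly DCs, 59.9, 43.1 and 188 in untreated aly DCs, 1332, 514 and 66.9 in treated WT DCs and 22.2, 11.1 and 19.0 in untreated WT DCs. The treated WT arrays spread from 66.9 to 1332 and enclosed the treated aly arrays. The untreated aly arrays all lay above the untreated WT arrays, and the treated arrays above the untreated ones in both genotypes. The change in aly was 1.64 ± 0.73 (95% interval 0.10 to 3.19, adjusted p = 0.371). The genotype difference was 1.55 ± 0.73 in untreated DCs (0.01 to 3.10, adjusted p = 0.476) and -0.36 ± 0.73 in treated DCs (-1.91 to 1.18, adjusted p = 0.796). Over the omissions the treated value ran from -1.48 to 0.53, and it was 0.49 on replicates 2 and 3 and -2.07 on replicate 1, so that its sign turned with the arrays used.

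Neutrophils themselves make Cxcl2, and neutrophil markers were set beside it. Of 10 listed markers 8 were measured and 0 were called in any comparison. Their summed level was 326 to 15295 in treated aly, 274 to 3132 in untreated aly, 133 to 1067 in treated WT and 66.8 to 422 in untreated WT DCs. The highest sum was on treated aly replicate 1. The part of neutrophils in the Cxcl2 values was not tested.

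Ordered by mean intensity, treated WT was the highest group for each of the 6 representative probe sets. It averaged 12366 ± 762 for Cxcl9, 6930 ± 1247 for Cxcl10, 1341 ± 166 for Cxcl11, 1452 ± 163 for Cxcl16, 404 ± 183 for Cxcl1 and 638 ± 641 for Cxcl2 (SD, n = 3). Treated aly came next for all but Cxcl16, with 3351 ± 1141 for Cxcl9, 1411 ± 1150 for Cxcl10, 108 ± 9.99 for Cxcl11, 198 ± 132 for Cxcl1 and 294 ± 79.0 for Cxcl2. For Cxcl16 the treated aly mean (646 ± 319) lay beside those of untreated aly (745 ± 222) and untreated WT (645 ± 337), and these 3 groups overlapped. The untreated groups overlapped for Cxcl9, Cxcl10 and Cxcl11 as well. Levels are compared within a probe set only, since probe sets differ in brightness per transcript.

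Genes of the interferon input to the Cxcr3 ligands (the interferons, their receptors, Janus kinases, Stat and Irf factors) are set beside them. Of 13 listed genes 12 were measured, and 5 rose with treatment in WT, 0 in aly, while 4 were lower in treated aly than in treated WT DCs. The shares of all genes called in these comparisons and directions were 4.95%, 0.453% and 2.64%. Ifng, the gene of interferon gamma, read 1286, 149 and 180 in treated aly DCs, 5.30, 0.80 and 39.0 in untreated aly DCs, 6302, 2233 and 641 in treated WT DCs and 16.2, 4.50 and 2.50 in untreated WT DCs. Treated arrays lay above untreated ones in both genotypes, and treated aly replicate 1 lay within the treated WT range. Ifng rose in WT (6.51 ± 0.79, adjusted p = 6.51e-05), with untreated levels below or near the offset. In aly its change was 3.69 ± 0.79 (adjusted p = 0.0514). The genotype difference in treated DCs was -2.60 ± 0.79 (95% interval -4.27 to -0.92, adjusted p = 0.0661), and -3.55 without treated aly replicate 1 (adjusted p = 0.00606).

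Natural killer cells are a main source of interferon gamma. Their summed marker level (7 listed, 6 measured) was 241 to 685 in treated aly, 132 to 717 in untreated aly, 199 to 1663 in treated WT and 123 to 192 in untreated WT DCs. Of the 6 measured 1, the granzyme gene Gzma, rose with treatment in WT (3.41 ± 0.84, adjusted p = 0.0173), where 4.95% of all genes rose. The part of natural killer cells in the Ifng values was not tested. Ifnb1, the gene of interferon beta, was not called (0.73 in aly with an adjusted p of 0.487, and -0.40 in WT with 0.696). Irf1, a transcription factor induced by interferon gamma, rose in WT (2.18 ± 0.51, adjusted p = 0.013). Its intensity was 18004, 3998 and 3286 in treated aly DCs, 2798, 2729 and 2676 in untreated aly DCs, 11886, 8259 and 9574 in treated WT DCs and 2887, 2088 and 1644 in untreated WT DCs. Treated aly replicate 1 was the highest of all arrays. The genotype difference in treated DCs was -0.66 with that array (adjusted p = 0.461) and -1.43 without it (adjusted p = 0.0189).

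Stat2, a signal transducer of type I interferon, read 441, 138 and 186 in treated aly DCs, 191, 127 and 63.1 in untreated aly DCs, 900, 697 and 1031 in treated WT DCs and 132, 124 and 98.1 in untreated WT DCs. The treated WT arrays lay above all others. Stat2 rose in WT (2.73 ± 0.45, adjusted p = 0.000985) and was lower in treated aly than in treated WT DCs (-1.86 ± 0.45, adjusted p = 0.0254). On its second probe set that difference was -1.49 (adjusted p = 0.1 over all probe sets). The kinases Tyk2 and Jak1, which sit on interferon receptors, were also lower in treated aly DCs (-1.79 and -2.25, adjusted p = 0.0164 and 0.0194) and rose in WT (1.66 and 1.78, adjusted p = 0.0124 and 0.0367). A further probe set of each gave 0.08 and 0.58 for the genotype difference (adjusted p = 0.954 and 0.508), so the probe sets disagree. Irf9, the partner of Stat2, was lower in treated aly DCs (-1.45, adjusted p = 0.0421), a call lost without treated aly replicate 1 (adjusted p = 0.0745).

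**Figure D4:**
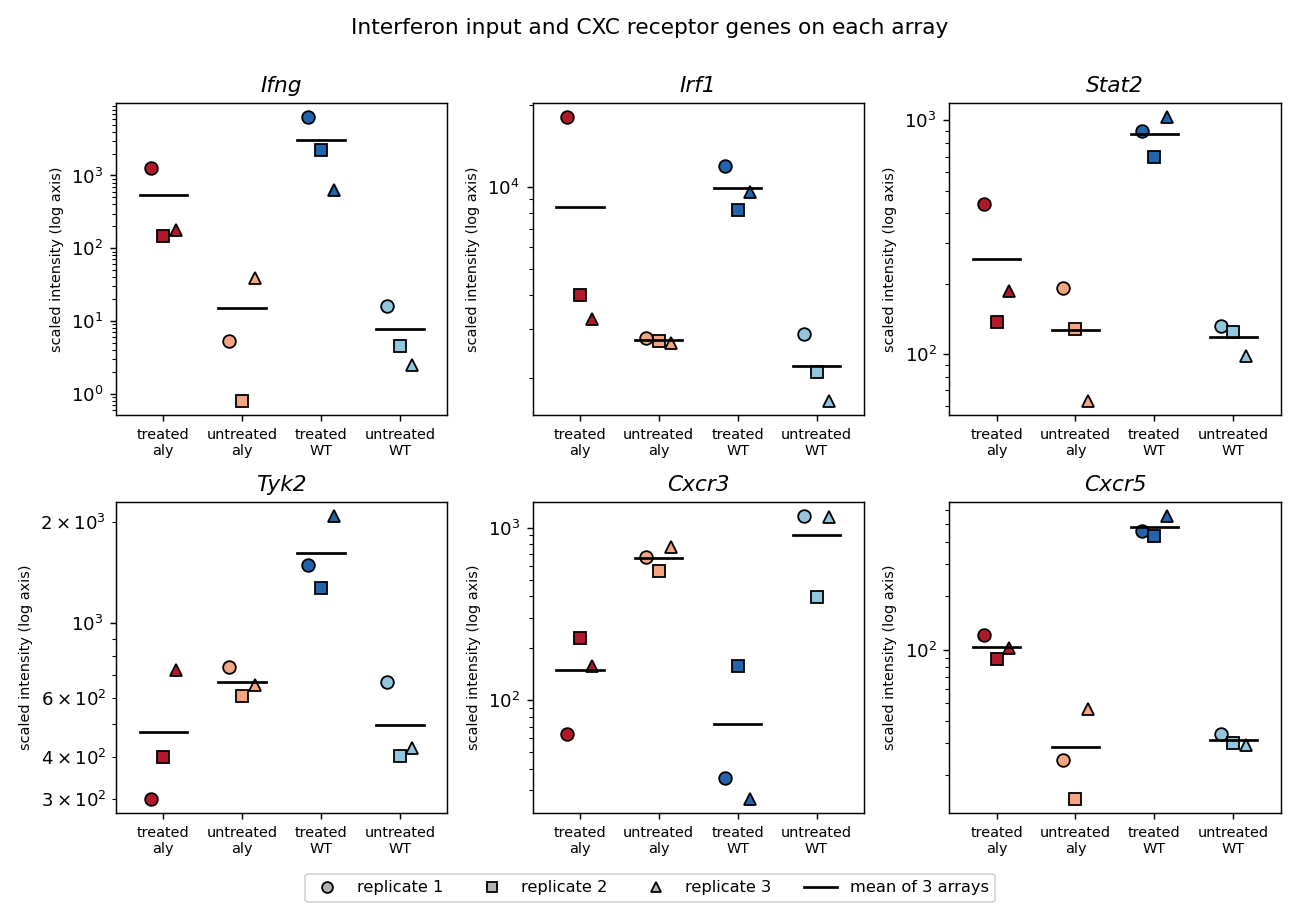
Scaled intensity (log axis) of Ifng, Irf1, Stat2, Tyk2, Cxcr3 and Cxcr5 on all 12 arrays, by group, with symbols for replicates 1 to 3 and a bar for the mean of 3 arrays. Cxcr3 lies lower on treated than on untreated arrays in both genotypes, Cxcr5 is highest on the 3 treated WT arrays, and treated aly replicate 1 (circle) has the highest Irf1 value.

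Among the receptors of the family 8 were listed and 6 measured. With treatment in WT 1 rose and 1 fell, where 4.95% of all genes rose and 4.75% fell. Cxcr3, the receptor of Cxcl9, Cxcl10 and Cxcl11, fell. Its intensity was 63.2, 230 and 157 in treated aly DCs, 678, 557 and 776 in untreated aly DCs, 35.1, 157 and 26.6 in treated WT DCs and 1171, 395 and 1154 in untreated WT DCs. Treated arrays lay below untreated ones in both genotypes, and the genotypes overlapped. The change was -2.18 ± 0.57 in aly (95% interval -3.38 to -0.98, adjusted p = 0.135) and -3.52 ± 0.57 in WT (11.5-fold, adjusted p = 0.000834), and the difference in response was 1.34 (95% interval -0.35 to 3.03, adjusted p = 0.711).

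Cxcr5, the receptor of Cxcl13 that leads cells toward B cell follicles, was highest in treated WT DCs. It read 120, 88.8 and 103 in treated aly DCs, 24.1, 14.6 and 46.6 in untreated aly DCs, 460, 434 and 559 in treated WT DCs and 33.8, 30.2 and 29.4 in untreated WT DCs. The treated aly arrays lay between the untreated and the treated WT arrays without overlap. Cxcr5 rose in WT (3.40 ± 0.35, 10.6-fold, adjusted p = 1.5e-05) and was lower in treated aly than in treated WT DCs (-2.06 ± 0.35, adjusted p = 0.00498), and both calls held in all 12 omissions. In aly the change was 1.49 ± 0.35 (adjusted p = 0.0818). Cxcr6, the receptor of Cxcl16, was not called (-0.05 in aly and 0.93 in WT, adjusted p = 0.977 and 0.302). Cxcr2, the receptor of Cxcl1 and Cxcl2, did not pass the filter on low values.

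Of 9 other CXC chemokine genes 8 were measured, and 0 were called by limma in any of the 5 comparisons. Their median log2 change with treatment was -0.13 in aly and 0.23 in WT. Pf4 and Cxcl3 are named after their values were seen. Pf4, a platelet chemokine, read 535, 243 and 290 in treated aly DCs, 390, 144 and 330 in untreated aly DCs, 207, 132 and 32.4 in treated WT DCs and 117, 36.3 and 34.8 in untreated WT DCs. Its aly arrays lay above the WT arrays at the same treatment. The differences were 1.59 ± 0.57 in treated and 2.00 ± 0.57 in untreated DCs (adjusted p = 0.11 and 0.158). Cxcl3, a close relative of Cxcl1 and Cxcl2, read at most 29.7 on any array.

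Of 13 listed genes of the inflammatory input to Cxcl1 and Cxcl2, 12 were measured. With treatment in WT 3 rose, against 4.95% of all genes, and 0 were called by limma in the other comparisons with all arrays. The 3 were Cd14, the LPS co-receptor (2.75 ± 0.65, adjusted p = 0.0135), Rela, a canonical NF-kB subunit (1.69 ± 0.41, adjusted p = 0.0151), and Myd88, the adaptor of Toll-like receptors (1.30 ± 0.38, adjusted p = 0.0428). Their aly changes were 1.31, 0.13 and 0.63 (adjusted p = 0.395, 0.917 and 0.473), and the differences in response were not called. Leaving out 1 array removed these WT calls in 3, 4 and 7 of 12 omissions. Without treated aly replicate 1, however, 6 of 12 were called higher for treatment in WT, as were 1172 of 15019 genes. Over all genes 620 were then called higher in treated and 288 in untreated aly DCs. In that fit Tlr4, the LPS receptor, was higher in treated aly than in treated WT DCs (2.08, adjusted p = 0.0147, against 1.16 and 0.293 with all arrays). Cd14 was higher in untreated aly than in untreated WT DCs (2.53, adjusted p = 0.0363), as it was with the replicate block (adjusted p = 0.0334, against 0.108 without the block). Of 5 proteases that cut or shed chemokines, Mmp12 (-3.47 ± 0.67, adjusted p = 0.00363) and Mmp9 (-2.22 ± 0.60, adjusted p = 0.0294) fell with treatment in WT, where 4.75% of all genes fell. Dpp4, which trims and inactivates Cxcr3 ligands, was lower in treated aly than in treated WT DCs (-2.15 ± 0.56, adjusted p = 0.0369), with overlapping arrays. Of all genes 2.64% were called lower in that comparison. The Dpp4 call was lost without treated aly replicate 1 (-1.48, adjusted p = 0.0733).

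Across the 12 arrays the Cxcr3 ligands varied together, with Pearson correlations of log2 values of 0.94 for Cxcl10 and Cxcl11, 0.90 for Cxcl9 and Cxcl11 and 0.83 for Cxcl9 and Cxcl10. Within groups, after removing the group means, the same pairs gave 0.08, 0.40 and 0.13. Cxcl9 and Cxcl16 kept 0.86 within groups (0.87 over all arrays), and Cxcl10 and Cxcl1 0.64 (0.90). Cxcl1 and Cxcl2 gave 0.83 over all arrays and 0.48 within groups. These values describe 12 arrays that share groups and scaling.

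Among all tested genes those most like each member over the 12 arrays were taken from the same log2 values. Cxcl11 was most like Fas, the death receptor (r = 0.986), and then Insl6, Nudt17, the cytokine Il6 and Nxf1 (down to 0.964). Cxcl10 was most like Trim43a (0.986), followed by Adgrg6, the feedback inhibitor Socs2, Plcd3 and the interferon-induced GTPase Igtp (down to 0.978). For Cxcl9 they were Tnfaip3, an inhibitor of NF-kB (0.948), Serpinb9, Gnb4, Gm20559 and Strip2. Cxcl16 was most like Pfkp, a glycolytic enzyme (0.926), with Il20rb, Rnf19a, Cand1 and the LPS co-receptor subunit Ly96 after it. Cxcl1 was most like Mlkl, an effector of necroptosis (0.938), followed by Tmtc2, Plcd3, Nek8 and Ifng. Cxcl2 was most like Gzma (0.951), Lcn2, F10, Gzmb and Mmp13, of which Gzma and Gzmb encode granzymes of cytotoxic lymphocytes and Lcn2 a neutrophil granule protein. The first-ranked gene was the same over 11 arrays without treated aly replicate 1 for Cxcl9 and Cxcl11 and a different one for the other 4.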

How the data were processed

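RNA of pooled splenic DCs was measured on 12 Affymetrix arrays, after an amplification with 2 in vitro transcription rounds per the labels. The deposited values are intensity on a linear scale, 1 per probe set, and a 2% trimmed mean of 150.001 on every array shows that the authors scaled them to a common target. Which software and background correction were used is not given in the sources used here. All columns matched a sample (0 unmatched).

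Of the probe sets 34958 had 1 symbol, 932 several and 9211 none, and 64 were controls. Probe sets above the 40th percentile on at least 3 arrays were kept (34205 without controls), those with 1 symbol were named, and the probe set with the highest mean log2 value stood for its gene. Values as deposited, as log2(intensity + 16), were fitted with limma 3.58.1 (R 4.3.3) with 1 mean per group over 12 arrays (8 residual and 8.04 prior degrees of freedom), in 5 comparisons with Benjamini-Hochberg adjustment over all genes, or over all probe sets where stated. The fit was tested on simulated data. Promoters were searched with Python 3.11.15 and pandas 2.3.3.

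Named are the 6 members, Cxcr3, Cxcr6, Cxcr2, Ifng, Ifnb1 and Irf1, up to 4 called genes per list and comparison, and the 5 genes most correlated with each member. A further gene that the rule names is not reported here. The members and lists were chosen with earlier results of these data known. Array number limits the precision. Alternatives covered the offset, filter, scaling, replicate and spike-in blocks, the groups fitted, the probe set and the omission of each array. Deviations from the group means correlated above 0.1 for all 3 same-numbered pairs of untreated aly and untreated WT arrays (0.16 to 0.23), so the numbers were taken to pair these, from the data and not the labels. In the other 3 comparisons of 2 groups 1 or 2 of 3 pairs did, and the numbers were not taken to pair them.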

Additional observations from a re-analysis of the deposited data

Results flagged for a closer look

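The response of Cxcl11 to treatment in aly minus that in WT was -3.53 log2 units, and it is listed because the difference between the 2 responses was itself tested and passed the threshold. Cxcl11 was the 1 member with such a call. Its second probe set gave -0.68 ± 0.70 for the same difference (adjusted p = 0.877 over all probe sets), or -1.41 without treated aly replicate 1 (adjusted p = 0.231).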

How the results depend on the processing

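The number of members called for treatment in WT was 5 or 6 under every setting run, and 0 of 6 were called for genotype in untreated DCs. Members called for treatment in aly (1) became 0 with an offset of 1 and with only the groups compared, and 2 with the spike-in block (replicate 1 against replicates 2 and 3). Those for genotype in treated DCs (3) became 1 with an offset of 1 and with only the groups compared, and the 1 for the difference in response became 0 with an offset of 1, with median centring and on replicates 2 and 3 alone. Leaving out 1 array gave 0 to 2 members for treatment in aly, 5 to 6 for treatment in WT, 1 to 4 for genotype in treated DCs and 0 to 2 for the difference in response. Genes called for treatment in aly (73) became 11 with an offset of 1, 28 on replicates 2 and 3, 45 with median centring, 120 with the spike-in block and 6 with only the groups compared (13 to 102 over omissions). For treatment in WT (1458) they became 898, 893 with median centring and 2895 with only the groups compared (587 to 2843). For genotype in treated DCs (807) they became 231 with an offset of 1, 507 with median centring and 27 with only the groups compared (81 to 1544). For genotype in untreated DCs (83) they became 0 with an offset of 1 and with median centring, 39 without a filter, 133 with the replicate block, 176 with the spike-in block, 231 on replicates 2 and 3 and 393 with only the groups compared (0 to 396). For the difference in response (23) they became 1 with an offset of 1, 12 without a filter, 8 with median centring, 9 with quantile normalization, 5 on replicates 2 and 3 and 11 with every probe set tested (1 to 113). The cause of these moves was not tested beyond the number of arrays or genes each setting uses. The highest counts over omissions came without treated aly replicate 1 for treatment in WT, genotype in untreated DCs and the difference in response, without replicate 2 of that group for treatment in aly, and without its replicate 3 for genotype in treated DCs. The lowest came without treated WT replicate 3 for treatment in WT and genotype in treated DCs, and without untreated aly replicate 3 for treatment in aly.

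Among the representative probe sets signs turned for uncalled genotype differences and for no treatment change, but other probe sets gave 0.64 for Cxcl16 (representative -0.26) and -0.04 for Cxcl1 (representative 1.07) for treatment in aly and 0.74 for Cxcl9 (representative -0.00) for genotype in untreated DCs, all uncalled. In untreated DCs Cxcl11 became -0.17 with median centring, -0.094 with quantile normalization and -0.29 on replicate 1 alone, Cxcl9 became 0.006 with quantile normalization and 0.36 on replicates 2 and 3, and Cxcl16 became -0.017 on replicate 1 alone. In treated DCs Cxcl2 became 0.49 on replicates 2 and 3. Over omissions the untreated differences ran from -0.51 to 0.29 for Cxcl9, -0.34 to 0.18 for Cxcl10, -0.34 to 0.33 for Cxcl11 and -0.21 to 0.64 for Cxcl16, and the treated difference of Cxcl2 from -1.48 to 0.53. With the replicate block, Cxcl16 was called for treatment in WT (1.32, adjusted p = 0.037) and no other call of a member changed. The block also called Ifng for treatment in aly (adjusted p = 0.0266) and for genotype in treated DCs (0.0359), and Pf4 (0.045) and Marco (0.0163) for genotype in treated DCs, where the numbers were not taken to pair the arrays. As a hint from the data, 9 of 12 arrays correlated best with an array of their own number. Low untreated signals of Cxcl11, Cxcl1 and Cxcl2, near the offset, limit the precision of their changes.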
